A study of Rattus norvegicus with 16 samples.

Results

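Gene expression of the hippocampus was set against that of the cortex in male Sprague-Dawley rats that ate control chow. The arrays labelled control were chosen, 4 of hippocampus and 4 of cortex, out of 16 arrays in all. The other 8 arrays came from rats fed curcumin, a plant polyphenol, and were used here only to look at the same tissue difference in other animals. The rats were 15 months old when the experiment began, an aged stage for this outbred strain, and were kept on the chow for 6 or 12 weeks. Those of the 12-week groups were thus older when tissue was taken, and duration and age cannot be told apart. The 4 groups used, with 2 arrays each, were hippocampus after 6 weeks, hippocampus after 12 weeks, cortex after 6 weeks and cortex after 12 weeks, all on control chow. Each group had 6 rats, and the tissue of 3 rats was pooled for each RNA sample, so the unit of every value was a pool. By the labels the 2 arrays of a group are biological replicates, but duplicate arrays are mentioned in the methods too, so the p-values measure only the spread between these arrays, which may be technical.

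The hippocampus is an old part of the cerebral cortex that stores new episodes and places. Its principal neurons are the granule cells of the dentate gyrus and the pyramidal cells of the fields CA1 to CA3, which are linked by excitatory synapses and carry many receptors for stress hormones and serotonin. The cortex is built of layers of excitatory projection neurons with different targets, among which GABA interneurons are scattered. Immediate early genes are transcribed within minutes of neuronal activity in both regions and encode transcription factors, phosphatases and synaptic proteins.

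The values were log2 expression values of 27342 transcript clusters, the units of the array, of which 15103 carried exactly 1 gene symbol. These named 14329 genes, and a gene was represented by its brightest cluster. Array medians lay between 6.35 and 6.44. Correlations across clusters ranged between 0.989 and 0.996 for pairs of hippocampal arrays, between 0.981 and 0.995 for pairs of cortical arrays, and between 0.977 and 0.992 for pairs of a hippocampal with a cortical array. Within a group, 100 clusters differed by 1.5-fold or more between the arrays of hippocampus after 6 weeks and 585 between those of cortex after 6 weeks. After 12 weeks 342 differed by as much in hippocampus and 196 in cortex, so neither tissue was the more even at both durations. In a principal component analysis of the 8 arrays, the first component (38.1% of the variance) separated the durations. The 6-week arrays lay between −31.06 and −3.49 on it and the 12-week arrays between 9.82 and 19.89. The second component (25%) separated the tissues, at 5.10 to 19.82 in hippocampus and −20.58 to −3.88 in cortex. What set the durations apart was not tested.

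Several arrays stood apart in genes of neighbouring regions. Markers of striatal projection neurons (15 genes) averaged 8.50 in cortex 6-week replicate 1 and 7.98 in cortex 12-week replicate 2, against 6.84 to 6.95 in the other cortical arrays and 6.77 to 6.88 in hippocampus. Drd1, the dopamine receptor of striatonigral neurons, reached 9.06 and 8.65 in those cortical arrays and 6.56 and 6.60 in the other cortical ones. Cortex 6-week replicate 2 was high in olfactory bulb genes (8 genes, 7.33 against 6.00 to 6.17 in the other cortical arrays), in hypothalamic genes (11 genes, 6.84 against 6.01 to 6.06) and in red blood cell genes (4 genes, 7.92 against 6.76 to 7.12). In that array Pmch, the precursor of a hypothalamic feeding peptide, stood at 8.39 against 4.98 to 5.01 in the other cortical arrays, Th, the dopamine-synthesising hydroxylase, at 8.33 against 5.89 to 6.17, and Dcx, a protein of migrating young neurons, at 9.04 against 7.54 to 7.76. Genes of the meninges (11 genes) were high in cortex 6-week replicate 2 at 7.63 and in cortex 12-week replicate 1 at 7.52. In the hippocampus, genes of the choroid plexus (14 genes) averaged 6.40 and 8.03 after 6 weeks and 5.94 and 5.98 after 12 weeks, against 5.93 to 6.10 in cortex. Ttr, the transthyretin secreted by the choroid plexus, measured 9.59, 12.19, 6.42 and 6.85 in hippocampus and 6.55, 5.79, 6.53 and 6.33 in cortex. None of the striatal, olfactory bulb, hypothalamic, choroid plexus, meningeal and red blood cell genes passed the test described next (adjusted p = 0.274 for Ttr). Of the 11 meningeal genes 1 was called lower in hippocampus under the replicate block described below, and 6 were called lower without the cortical arrays high in striatal genes, a fit in which the arrays high in meningeal genes are the only cortical ones (median −0.87, against −0.53 with all arrays). Over all clusters 0.406% and 0.519% were called lower in these fits. For the other lists named here neither fit made a call, and the part of these arrays in the results below was not tested except where values without them are given.

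**Figure D1:**
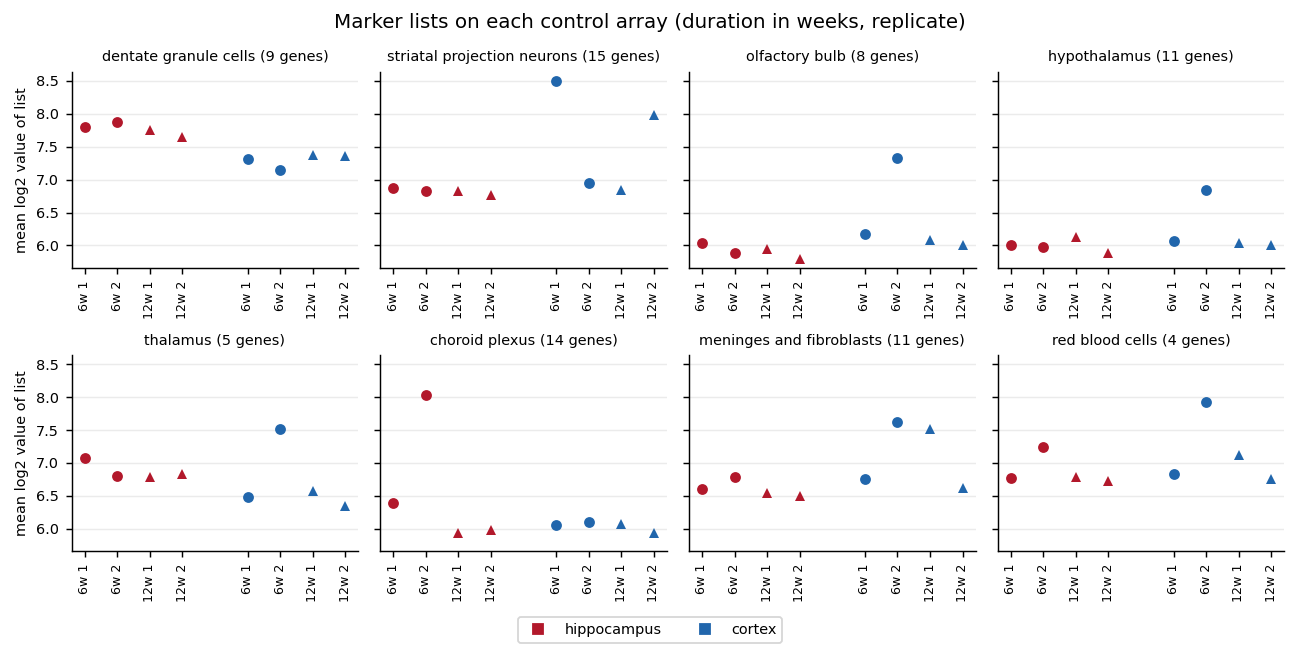
Mean log2 value of 8 marker lists on each of the 8 control arrays, hippocampus left and cortex right, each ordered by duration (6w, 12w) and replicate. Striatal genes were high in 2 cortical arrays (8.50 and 7.98), olfactory bulb genes in 1 (7.33) and choroid plexus genes in 1 hippocampal array (8.03). The mean of the dentate granule cell list separated the tissues on every array, although its median difference after 12 weeks was 0.03.

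The question was which genes and functions separate the regions without curcumin. Compared with cortex, the hippocampus was higher in 543 clusters and lower in 173, which is 1.99% and 0.633% of the clusters tested, or 2.62% in either direction (limma with duration as a block, adjusted p under 0.05). In 623 of these 716 clusters the 4 hippocampal and the 4 cortical arrays did not overlap, and over all clusters such arrays were apart with hippocampus higher in 4.18% and lower in 2.43%. Among genes with 1 symbol, 390 were higher and 108 were lower (2.72% and 0.754% of 14329). These are the shares over all genes to set beside the calls in each gene list below. The median difference over all genes was 0.0033 on the log2 scale. A difference of 2-fold or more was reached by 63 of the higher and 24 of the lower clusters. Without a test, 260 clusters were at least 1.5-fold higher and 169 at least 1.5-fold lower (0.951% and 0.618%).

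The number of calls moved with the arrays. With the replicate number as a block, 435 clusters passed, 324 higher and 111 lower, of which 398 were also called without the block. Leaving out single arrays gave 307 to 646 calls, and the calls fell most without hippocampus 6-week replicate 2 (307), cortex 12-week replicate 2 (361), cortex 12-week replicate 1 (426), hippocampus 6-week replicate 1 (427) and hippocampus 12-week replicate 2 (434). In every one of these 8 fits 269 clusters were called, 221 higher and 48 lower, and these are said below to have held. Without both 6-week replicate 2 arrays 302 clusters were called, and without the 2 cortical arrays high in striatal genes 411, of which 296 were among the 716.

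**Figure D2:**
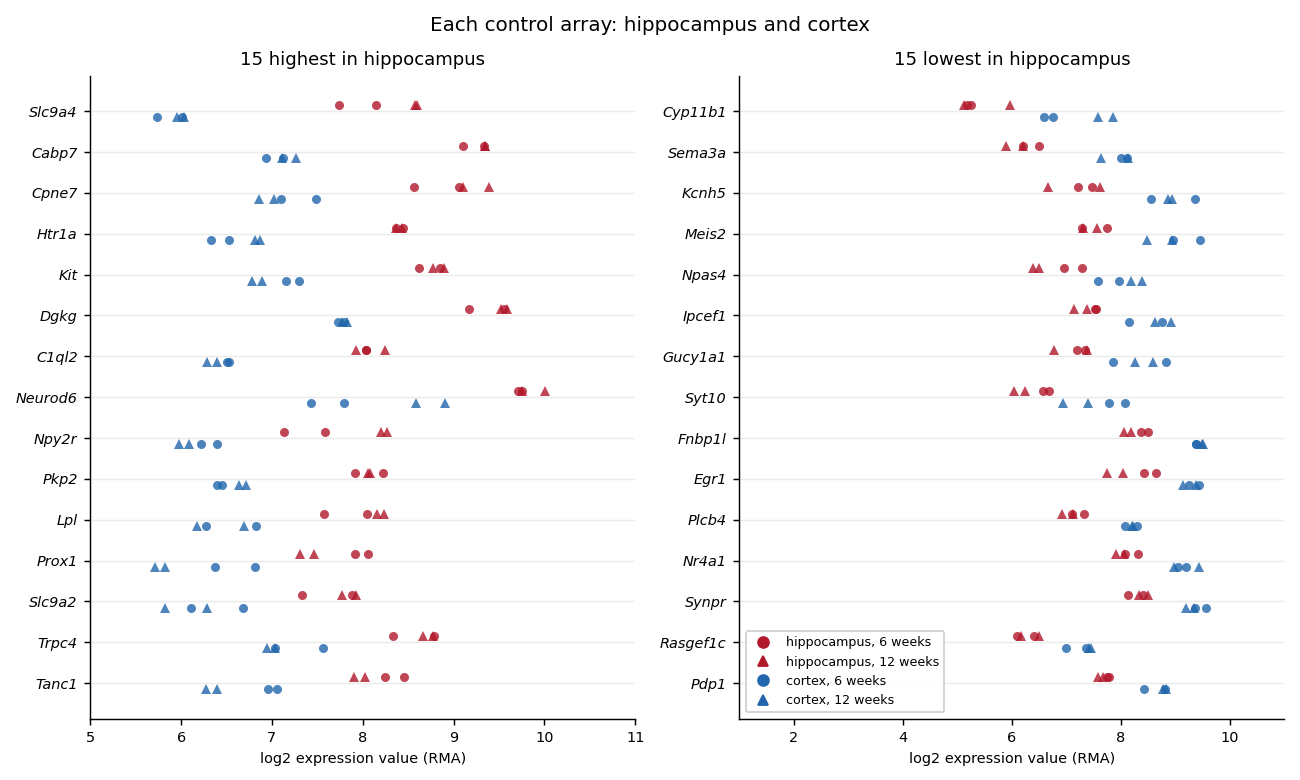
Log2 expression value of the 15 genes with the highest and the 15 with the lowest difference on each control array, hippocampus in red above cortex in blue, circles for 6 weeks and triangles for 12 weeks. The 4 hippocampal arrays lie apart from the 4 cortical arrays for all 30 genes, as the choice of genes required.

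In the list of dentate granule cell genes 3 of 9 measured genes were higher in hippocampus and none was lower, with a median difference of 0.29. The median was 0.69 after 6 weeks and 0.03 after 12 weeks, and 0.11 without both 6-week replicate 2 arrays. Prox1, the homeobox factor that specifies granule cells, measured 7.91, 8.06, 7.31 and 7.46 in hippocampus and 6.81, 6.37, 5.71 and 5.82 in cortex (6-week replicates 1 and 2, then 12-week replicates 1 and 2, the order used throughout). The lowest hippocampal array was above the highest cortical one, and the difference was 1.51 (SE 0.10, adjusted p = 0.000751). C1ql2, a secreted protein of mossy fibre synapses, measured 8.04, 8.03, 8.24 and 7.93 in hippocampus and 6.53, 6.50, 6.40 and 6.28 in cortex, a difference of 1.63 (SE 0.08, adjusted p = 0.00027). The third called gene was Rfx3, a ciliary transcription factor, at a difference of 0.54 (adjusted p = 0.0186), whose call was lost without any 1 of 5 arrays (both hippocampal 6-week arrays, hippocampus 12-week replicate 1 and the replicate 1 cortical arrays of both durations, adjusted p from 0.0504 to 0.0607) and under the replicate block (adjusted p = 0.0665). In bulk tissue, fewer cells of a type and less RNA per cell cannot be told apart.

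In the list of the pyramidal fields 4 of 16 genes were higher and none was lower (median difference 0.35). Fibcd1, a chitin-binding receptor of CA1 neurons, averaged 7.18 ± 0.32 in hippocampus and 6.12 ± 0.07 in cortex (SD, n = 4 arrays each), a difference of 1.06 (adjusted p = 0.00389). Bok, a BCL2 family member of CA3 neurons, differed by 0.50 (adjusted p = 0.00587) and Grik4, a kainate receptor subunit of CA3 neurons, by 0.94 (adjusted p = 0.00875). Cpne4, a copine, differed by 1.26 (adjusted p = 0.0465), and its call was lost without any 1 of 6 arrays (all hippocampal arrays and both 12-week cortical arrays, adjusted p from 0.0805 to 0.157). Wfs1, a CA1 marker that layer 2 of the cortex also expresses, overlapped at 8.79 to 9.57 in hippocampus and 8.38 to 9.01 in cortex (adjusted p = 0.449).

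The cortex label was less easily checked. Of 10 measured genes of upper cortical layers 3 were lower in hippocampus and 1 was higher (median −0.28), and none of the 4 calls held. They were Cux1, a homeobox factor of upper layers, at −0.47, Stard8, a GTPase-activating protein, at −0.64, Inhba, the activin subunit, at −0.36, and Rasgrf2, a Ras exchange factor, at 0.54. Their adjusted p-values were 0.0164, 0.0367, 0.0411 and 0.0301, and all were above 0.05 under the replicate block (0.0565, 0.0534, 0.0749 and 0.0615). The calls were lost without 3 of the arrays for Cux1 (replicate 2 of hippocampus at both durations and cortex 12-week replicate 2), 5 for Rasgrf2 (both hippocampal 6-week arrays, hippocampus 12-week replicate 2, cortex 6-week replicate 1 and cortex 12-week replicate 2), 6 for Stard8 (all but the cortical 6-week arrays) and all 8 for Inhba, with adjusted p from 0.0504 to 0.137. Of 15 deep layer genes, Kcnk2, a leak potassium channel, was lower (−0.91, adjusted p = 0.00359) and Sulf2, a heparan sulfate sulfatase, was higher (0.54, adjusted p = 0.00717), and both held. Fezf2, which specifies subcortical projection neurons, measured 8.09, 8.34, 8.29 and 8.06 in hippocampus and 7.46, 7.11, 8.28 and 7.88 in cortex (adjusted p = 0.259). Of the 10 upper layer genes 5 were lower on every hippocampal array than on every cortical one and 1 was higher on every array. Of the 15 deep layer genes this held for 4 lower and 1 higher. Over all clusters 2.43% were so apart with hippocampus lower and 4.18% with it higher. By calls that held, the cortical arrays were thus recognised mainly by low values of hippocampal genes, while more layer genes lay apart than were called.

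Of 15 measured transcription factors of forebrain excitatory neurons 8 were higher and 1 was lower (median difference 0.48), of which 4 higher and 1 lower held. Neurod6, a basic helix-loop-helix factor of excitatory neurons, measured 9.75, 9.71, 9.75 and 10.01 in hippocampus and 7.79, 7.43, 8.91 and 8.59 in cortex. The difference was 1.62 (SE 0.20, adjusted p = 0.00693), with 2.12 after 6 weeks and 1.13 after 12 weeks, and without the cortical arrays high in striatal genes the adjusted p was 0.0628. Neurod1, of the same family, averaged 7.54 ± 0.18 in hippocampus and 6.26 ± 0.34 in cortex (SD, n = 4 each, adjusted p = 0.00027), and Bhlhe22 averaged 7.50 ± 0.09 and 6.19 ± 0.39 (adjusted p = 0.00519). Zbtb20, a zinc finger factor that specifies hippocampal pyramidal neurons, differed by 0.62 (adjusted p = 0.0266), and its call was lost without any 1 of 5 arrays (hippocampus 6-week replicate 2, both hippocampal 12-week arrays, cortex 6-week replicate 2 and cortex 12-week replicate 2, adjusted p from 0.0510 to 0.0900) and under the replicate block (0.0534). Slc17a7, the vesicular glutamate transporter of excitatory neurons, measured 10.56, 10.65, 10.73 and 10.77 in hippocampus and 9.71, 9.54, 10.57 and 10.52 in cortex (adjusted p = 0.0952), so the same 6-week cortical arrays that were lowest in Neurod6 were lowest in this general marker, whose part in the result was not tested.

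The 1 lower member was Meis2, a homeobox factor that marks striatal and olfactory interneuron lineages as well as cortical neurons. It measured 7.75, 7.29, 7.31 and 7.56 in hippocampus and 8.95, 9.45, 8.48 and 8.93 in cortex, a difference of −1.47 (SE 0.17, adjusted p = 0.00531). The highest cortical value was in the array with high olfactory bulb genes, followed by both arrays with high striatal genes, and the remaining cortical array was still above every hippocampal one.

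Neurod6 and Nr4a1, an immediate early gene described below, had promoters in the sequence table, and they are shown here with those of Egr1 and Dusp1 because these genes moved in opposite directions between the regions. Each window covers 300 bases of the rat assembly GRCr8 from RefSeq, written along the gene and ending 50 bases after the start of transcription. Capitals mark TGACG on either strand (the core of the cAMP response element, bound by CREB), the CArG box (bound by serum response factor) and CAGATG on either strand (an E-box that NeuroD factors bind). Neurod6 lies at chr4:86180106-86180405 on the minus strand, Egr1 at chr18:26736828-26737127 on the plus strand, Nr4a1 at chr7:134259888-134260187 on the plus strand and Dusp1 at chr10:17184603-17184902 on the plus strand.
Neurod6: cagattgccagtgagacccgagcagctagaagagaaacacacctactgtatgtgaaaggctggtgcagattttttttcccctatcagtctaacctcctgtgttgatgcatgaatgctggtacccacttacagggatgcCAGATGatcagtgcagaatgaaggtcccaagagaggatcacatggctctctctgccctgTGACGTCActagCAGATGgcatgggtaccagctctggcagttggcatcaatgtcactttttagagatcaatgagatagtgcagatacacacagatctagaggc
Egr1: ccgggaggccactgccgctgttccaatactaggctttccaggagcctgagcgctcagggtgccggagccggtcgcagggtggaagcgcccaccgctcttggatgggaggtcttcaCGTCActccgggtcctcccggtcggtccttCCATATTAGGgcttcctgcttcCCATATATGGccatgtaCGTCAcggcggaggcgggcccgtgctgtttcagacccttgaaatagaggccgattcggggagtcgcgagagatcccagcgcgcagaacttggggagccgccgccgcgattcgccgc
Nr4a1: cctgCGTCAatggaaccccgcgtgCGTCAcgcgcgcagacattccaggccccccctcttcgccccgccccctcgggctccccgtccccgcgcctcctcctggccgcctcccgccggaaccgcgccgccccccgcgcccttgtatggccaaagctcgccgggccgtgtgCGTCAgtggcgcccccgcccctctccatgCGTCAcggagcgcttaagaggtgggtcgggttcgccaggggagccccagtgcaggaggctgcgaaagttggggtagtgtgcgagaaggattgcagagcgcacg
Dusp1: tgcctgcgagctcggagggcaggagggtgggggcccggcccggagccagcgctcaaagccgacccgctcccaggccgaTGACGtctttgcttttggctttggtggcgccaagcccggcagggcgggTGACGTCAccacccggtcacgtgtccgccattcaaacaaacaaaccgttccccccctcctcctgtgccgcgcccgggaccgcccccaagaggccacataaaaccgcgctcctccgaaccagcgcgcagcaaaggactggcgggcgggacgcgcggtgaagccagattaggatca
Neurod6 held CAGATG at 112 and 41 bases before the start, and TGACG on both strands at 53 and 50 bases before it, which overlap as 1 full palindrome. Egr1 held CArG boxes at 105 and 83 bases before the start and TGACG matches at 135 and 66. Nr4a1 held 4 TGACG matches, and Dusp1 held 3, of which 2 overlap as a palindrome. Of all 33469 promoters listed, 21.2% held TGACG, 1.64% a CArG box and 16.6% CAGATG. Of the 7 called immediate early genes 5 had a promoter in the table, and 4 of these held TGACG, 2 a CArG box and none CAGATG. Of the 15 highest genes 10 had a promoter, of which 4 held CAGATG, 2 TGACG and none a CArG box. Of the 15 lowest genes 10 had a promoter too, of which 2 held CAGATG, 2 TGACG and 1 a CArG box. These are letter matches and were not measured as binding.

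The 15 highest genes included 2 sodium-hydrogen exchangers. Slc9a4, which exchanges sodium for protons at the plasma membrane, showed the highest called difference, with 7.74, 8.14, 8.57 and 8.60 in hippocampus and 6.01, 5.73, 6.03 and 5.95 in cortex. Hippocampal arrays were thus higher by 2.33 (5.03-fold, SE 0.13, adjusted p = 0.000383). A second exchanger, Slc9a2, differed by 1.51 (adjusted p = 0.00864), with an adjusted p of 0.0501 without the cortical arrays high in striatal genes. Cabp7, a calcium-binding protein of the calmodulin family, measured 9.10, 9.33, 9.34 and 9.35 in hippocampus and 7.12, 6.93, 7.11 and 7.27 in cortex (difference 2.17, SE 0.07, adjusted p = 4.22e-05). Cpne7, a calcium-dependent membrane-binding copine, differed by 1.91 (adjusted p = 0.00317) and Trpc4, a receptor-operated cation channel, by 1.5 (adjusted p = 0.00334). Scn3b, an auxiliary subunit of sodium channels, averaged 10.29 ± 0.21 in hippocampus and 9.27 ± 0.24 in cortex (SD, n = 4 each, adjusted p = 0.000845). Cacng8, which traffics AMPA receptors, averaged 8.98 ± 0.14 and 8.17 ± 0.13 (adjusted p = 0.00325). These were the 2 calls among 25 sodium and calcium channel genes, beside 2.72% higher over all genes.

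Of 40 potassium channel genes 6 were lower, 2 were higher and 32 were not called (median −0.03), and 3 of the lower calls held. Over all genes 0.754% were lower and 2.72% were higher. Kcnh5, a voltage-gated channel of the ether-a-go-go family, measured 7.47, 7.21, 6.66 and 7.62 in hippocampus and 8.56, 9.36, 8.94 and 8.86 in cortex. Every hippocampal array was below every cortical one, by 1.69 on average (difference −1.69, SE 0.23, adjusted p = 0.0101), and the adjusted p was 0.0629 without both 6-week replicate 2 arrays. Kcnt1, a sodium-activated channel, averaged 7.80 ± 0.09 in hippocampus and 8.56 ± 0.12 in cortex (SD, n = 4 each, adjusted p = 0.00137). Kcnf1, a silent subunit of Kv2 channels, differed by −0.95 (adjusted p = 0.0135), and its call was lost without hippocampus 6-week replicate 2 (0.0516). The third that held was Kcnk2.

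In the list of monoamine and acetylcholine receptors 6 of 31 were higher and 1 was lower (median 0.11), and 5 of the higher calls held. Htr1a, an inhibitory serotonin receptor of pyramidal and granule cells, measured 8.36, 8.44, 8.43 and 8.36 in hippocampus and 6.53, 6.33, 6.81 and 6.87 in cortex, a difference of 1.76 (SE 0.09, adjusted p = 0.00027). Htr5b, another serotonin receptor, measured 7.41, 7.29, 7.29 and 6.88 in hippocampus and 6.09, 6.12, 6.08 and 6.07 in cortex, a difference of 1.13 (SE 0.09, adjusted p = 0.0015). Both held. Htr4, a serotonin receptor that raises cAMP, averaged 8.29 ± 0.07 in hippocampus and 7.32 ± 0.39 in cortex (SD, n = 4 each, adjusted p = 0.0111), and was named after its value was seen. Chrna7, the nicotinic receptor subunit of interneurons and pyramidal cells, differed by 0.65 (adjusted p = 0.00562) although its arrays overlapped, since it was higher after 12 weeks in both tissues. Adra1d, an adrenergic receptor, differed by 0.36 (adjusted p = 0.00902).

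Of 16 subunits of ionotropic glutamate receptors 5 were higher and none was lower (median 0.16). Gria1, the AMPA receptor subunit inserted during long-term potentiation, measured 10.85, 11.06, 11.02 and 10.99 in hippocampus and 10.19, 10.22, 10.11 and 10.29 in cortex, a difference of 0.78 (SE 0.06, adjusted p = 0.00118). Grin2a, an NMDA receptor subunit, differed by 0.74 (adjusted p = 0.0121, but 0.05005 under the replicate block). Both held, as did Grik4 above. Grik1, a kainate receptor subunit, differed by 0.40 (adjusted p = 0.0177), and its call was lost without hippocampus 6-week replicate 2, cortex 6-week replicate 1 or cortex 12-week replicate 2 (adjusted p from 0.0504 to 0.0789). None of 7 metabotropic glutamate receptors was called.

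Of 12 GABA-A receptor subunits 3 were higher and none was lower, while the median of the list was −0.16. Gabra5, the subunit of extrasynaptic receptors of pyramidal cells, measured 9.73, 9.86, 10.20 and 10.40 in hippocampus and 8.18, 8.72, 9.11 and 9.03 in cortex, a difference of 1.29 (SE 0.11, adjusted p = 0.00189). Gabrb1 differed by 0.66 (adjusted p = 0.0126) and Gabra2 by 0.62 (adjusted p = 0.0125). The call of Gabra2 was lost without hippocampus 6-week replicate 2 (0.0524) and under the replicate block (0.0511).

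**Figure D3:**
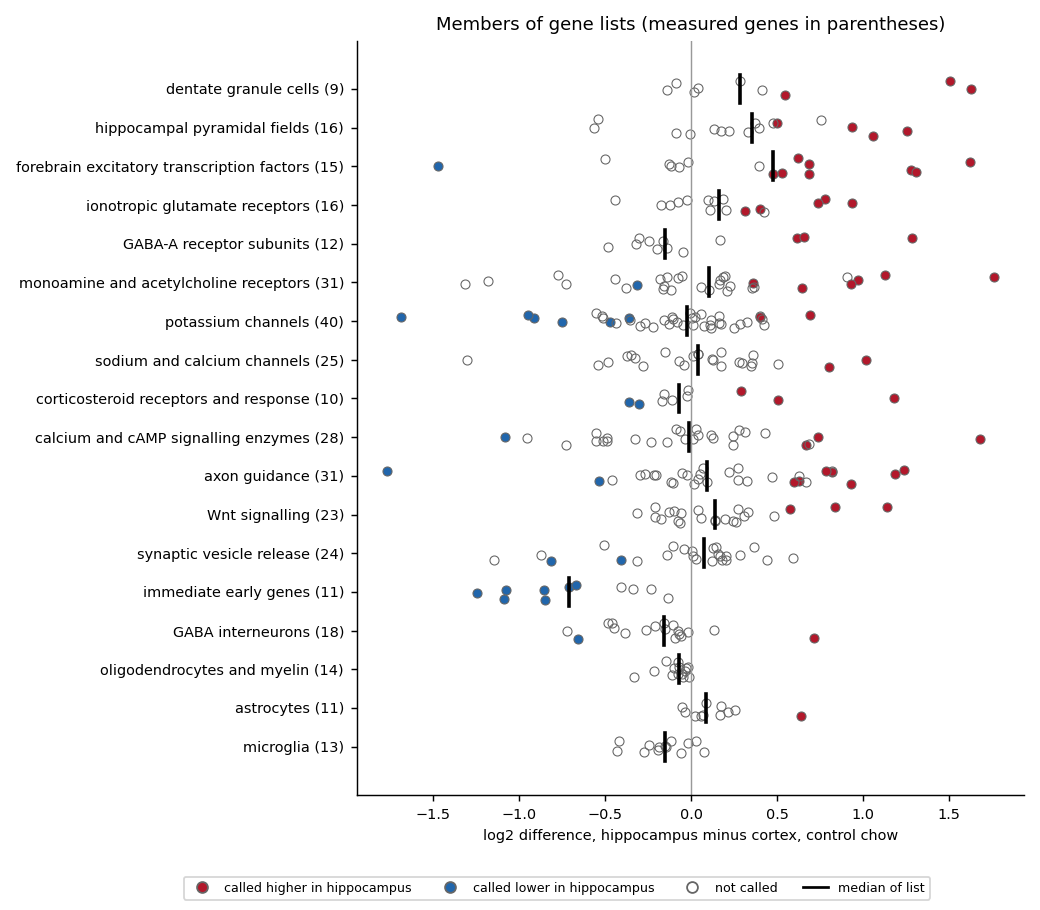
Log2 difference, hippocampus minus cortex, of every measured member of 18 gene lists on control chow. Filled points are genes called higher (red) or lower (blue), open points were not called, and the black bar is the median of the list, 0.48 for forebrain excitatory transcription factors and −0.71 for immediate early genes.

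Genes of the response to glucocorticoids differed in both directions, 3 higher and 2 lower of 10. Nr3c2, the mineralocorticoid receptor, which binds corticosterone with high affinity, measured 8.61, 8.82, 8.87 and 9.00 in hippocampus and 7.60, 7.70, 7.74 and 7.56 in cortex. The difference was 1.18 (SE 0.08, adjusted p = 0.000635), and this was the only one of the 5 calls that held. Nr3c1, the glucocorticoid receptor, ranged between 8.53 and 8.73 in hippocampus and between 8.74 and 8.89 in cortex (difference −0.17, adjusted p = 0.242). Hsd11b1, which regenerates active corticosterone, differed by 0.51 (adjusted p = 0.0305), Fkbp5, a chaperone that limits glucocorticoid receptor activity, by 0.29 (0.0468), the clock gene Per1 by −0.36 (0.0266) and Crh, the corticotropin-releasing hormone, by −0.31 (0.0479). All 4 calls were lost under the replicate block (0.0900, 0.0957, 0.0712 and 0.0562) and without single arrays (adjusted p from 0.0598 to 0.167). Those arrays were all but hippocampus 12-week replicate 1 and cortex 6-week replicate 1 for Hsd11b1, all but hippocampus 6-week replicate 1 for Fkbp5, the hippocampal arrays and cortex 12-week replicate 1 for Per1, and all but cortex 12-week replicate 2 for Crh. Cyp11b1, an enzyme that makes corticosterone in the adrenal gland, was the lowest called gene, at 5.18, 5.25, 5.12 and 5.97 in hippocampus and 6.76, 6.59, 7.86 and 7.58 in cortex (difference −1.82, SE 0.21, adjusted p = 0.00488). Its paralogs Cyp11b2 and Cyp11b3, whose transcripts are nearly identical, differed by −0.41 and −0.11 (adjusted p = 0.16 and 0.558), so the source of this signal is uncertain.

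In the list of immediate early genes 7 of 11 measured genes were lower in hippocampus and none was higher (0.754% and 2.72% over all genes). The difference was negative for all 11, with a median of −0.71. The list leaves out Nr4a2 and Nr4a3, given below, whose differences were positive. Egr1, a zinc finger factor, measured 8.65, 8.42, 8.03 and 7.75 in hippocampus and 9.25, 9.44, 9.37 and 9.14 in cortex, a difference of −1.09 (SE 0.13, adjusted p = 0.00608). Nr4a1, an orphan nuclear receptor, measured 8.31, 8.07, 8.06 and 7.91 in hippocampus and 9.20, 9.05, 9.44 and 8.98 in cortex, a difference of −1.08 (SE 0.12, adjusted p = 0.00378). Both held, and their arrays did not overlap. The adjusted p of Egr1 was 0.0531 without both 6-week replicate 2 arrays.

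Npas4, a factor induced only by calcium entry, measured 7.29, 6.96, 6.49 and 6.39 in hippocampus and 7.96, 7.58, 8.38 and 8.19 in cortex, a difference of −1.24 (adjusted p = 0.0372). Its call was lost without any 1 of 6 arrays (all but hippocampus 6-week replicate 1 and cortex 6-week replicate 2, adjusted p from 0.0720 to 0.127) and under the replicate block (0.0843). Dusp1, a phosphatase that inactivates MAP kinases, differed by −0.86 (adjusted p = 0.0152) and Arc, which removes AMPA receptors from the synapse, by −0.85 (0.0194). Dusp1 lost its call without hippocampus 6-week replicate 2, hippocampus 12-week replicate 2 or cortex 12-week replicate 2, and Arc without hippocampus 6-week replicate 2 or either hippocampal 12-week array (adjusted p from 0.0554 to 0.0822). Fos and Egr2, named after their values were seen, differed by −0.71 and −0.67 (adjusted p = 0.0283 and 0.0428) and lost their calls without single arrays (0.0543 to 0.131), which were all but replicate 1 of hippocampus at both durations for Fos and all but cortex 6-week replicate 2 for Egr2. Egr2 was also lost under the replicate block (0.0696). Under that block 5 members were called. Without the cortical arrays high in striatal genes 2 were called and the median was −0.75, and without both 6-week replicate 2 arrays 3 were called and the median was −0.83. Junb was lower on every hippocampal array than on every cortical one (7.31 to 7.55 against 7.57 to 8.33) and did not pass (adjusted p = 0.106).

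**Figure D4:**
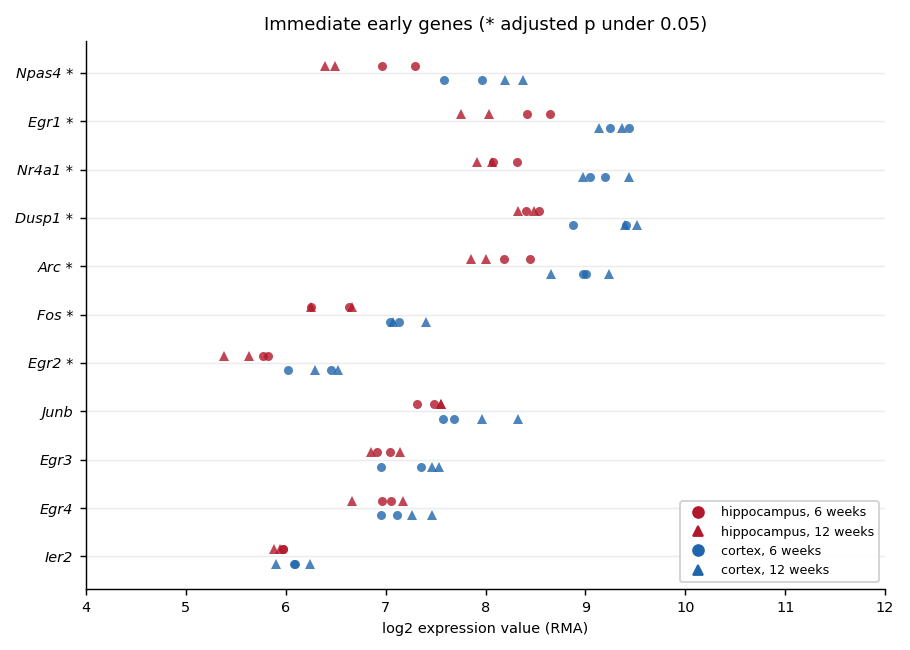
Log2 expression value of the 11 measured immediate early genes on each control array, hippocampus in red above cortex in blue, circles for 6 weeks and triangles for 12 weeks, with an asterisk for genes called. Hippocampal Egr1 lay between 7.75 and 8.65 and cortical Egr1 between 9.14 and 9.44.

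Nr4a3, of the same nuclear receptor family as Nr4a1 but placed in the list of excitatory transcription factors, ran the other way. It measured 7.94, 7.87, 7.86 and 7.87 in hippocampus and 7.41, 7.31, 7.57 and 7.35 in cortex, a difference of 0.48 (SE 0.06, adjusted p = 0.00868), and was named after its value was seen. Nr4a2, a further member of the family placed in the list of deep layer genes, had a positive difference too. At 0.76 it was the highest of that list, and it did not pass.

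Of 31 genes of axon guidance 7 were higher and 2 were lower (median 0.09), of which 5 and 1 held. Sema3a, a secreted repellent of growing axons, measured 6.49, 6.21, 5.89 and 6.21 in hippocampus and 8.01, 8.11, 8.13 and 7.63 in cortex, a difference of −1.77 (SE 0.13, adjusted p = 0.000828). Nrp1, the receptor that binds Sema3a, measured 8.40, 8.61, 8.41 and 8.44 in hippocampus and 6.91, 7.28, 7.50 and 7.22 in cortex, a difference of 1.24 (SE 0.12, adjusted p = 0.00258). Nrp2, which binds other class 3 semaphorins, averaged 7.95 ± 0.13 in hippocampus and 6.77 ± 0.12 in cortex (SD, n = 4 each, adjusted p = 0.000635). Sema3a was thus lower and both neuropilins were higher in every hippocampal array. Unc5a, a netrin receptor, differed by 0.82 (adjusted p = 0.00422). Slit1, a repellent ligand named after its value was seen, averaged 8.92 ± 0.07 and 7.99 ± 0.35 (adjusted p = 0.00501), and Sema5a, named likewise, differed by 0.79 (adjusted p = 0.0133, 0.0548 under the replicate block). In the list of Wnt signalling 3 of 23 were higher and none was lower (median 0.14). Rspo2, a secreted enhancer of Wnt signals, differed by 1.14 (adjusted p = 0.00317), Wnt7b by 0.84 (0.00582) and Wnt4 by 0.57 (0.012), the last without its call when cortex 12-week replicate 2 was left out (0.0513).

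Enzymes of calcium and cAMP signalling included Dgkg, a diacylglycerol kinase, at 9.17, 9.56, 9.59 and 9.52 in hippocampus and 7.73, 7.79, 7.77 and 7.83 in cortex (difference 1.68, SE 0.08, adjusted p = 0.00027). Plcb4, a phospholipase C of metabotropic receptor signalling, measured 7.32, 7.11, 6.91 and 7.13 in hippocampus and 8.07, 8.30, 8.20 and 8.23 in cortex (difference −1.08, SE 0.09, adjusted p = 0.00115). Both calls held. Of 28 genes in this list 3 were higher, 1 was lower and 24 were not called (median −0.01), beside 2.72% higher and 0.754% lower over all genes. Prkce, a protein kinase C, differed by 0.67 (adjusted p = 0.012), and Prkca by 0.74 (0.028), which was lost without any 1 of 7 arrays (all but cortex 6-week replicate 2, adjusted p from 0.0590 to 0.103). Gucy1a1, a subunit of the nitric oxide receptor, differed by −1.21 (adjusted p = 0.0326). It measured 8.83 and 8.59 in the cortical arrays high in striatal genes and 7.86 and 8.26 in the other cortical arrays, and its call was lost without any 1 of 7 arrays (all but cortex 6-week replicate 2, adjusted p from 0.0591 to 0.117).

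Other genes among the 15 highest were Kit, the receptor of stem cell factor, Npy2r, a presynaptic receptor of neuropeptide Y, Pkp2, a desmosomal plakophilin, Lpl, the lipoprotein lipase, and Tanc1, a postsynaptic scaffold. Kit averaged 8.78 ± 0.12 in hippocampus and 7.03 ± 0.24 in cortex (SD, n = 4 each, adjusted p = 0.000583). Npy2r measured 7.13, 7.58, 8.20 and 8.27 in hippocampus and 6.40, 6.22, 5.98 and 6.09 in cortex, a difference of 1.62 (SE 0.23, adjusted p = 0.0111). The gap was 1.05 after 6 weeks and 2.20 after 12 weeks, and this change did not pass (adjusted p = 0.483). Without both 6-week replicate 2 arrays the adjusted p of Npy2r was 0.0610 and that of Lpl (difference 1.52) was 0.0575. Npy, the ligand itself, ran the other way, at 8.21, 8.38, 8.76 and 8.46 in hippocampus and 8.86, 9.20, 9.20 and 9.20 in cortex (difference −0.66, SE 0.10, adjusted p = 0.0134), with an adjusted p of 0.0503 without the cortical arrays high in striatal genes.

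Among the 15 lowest were further synaptic and membrane proteins. Syt10, a synaptotagmin of regulated exocytosis, measured 6.57, 6.68, 6.03 and 6.24 in hippocampus and 7.78, 8.08, 6.94 and 7.40 in cortex (difference −1.17, SE 0.12, adjusted p = 0.00352). Synpr, the vesicle protein synaptoporin, differed by −1.02 (adjusted p = 0.00272), Fnbp1l, an actin-regulating F-BAR protein, by −1.16 (0.0011), Rasgef1c, a Ras-family exchange factor, by −1.02 (0.00441), and Pdp1, the phosphatase that activates pyruvate dehydrogenase, by −1.01 (0.00258). Ipcef1, a partner of the cytohesins, differed by −1.22 (adjusted p = 0.0111, 0.0610 without both 6-week replicate 2 arrays). Of 24 genes of vesicle release 2 were lower and 22 were not called (median 0.08), beside 0.754% lower over all genes. The lower ones were Rims3, an active zone protein, and Syn3, a synapsin (−0.82 and −0.41, adjusted p = 0.00587 and 0.0132). Without both 6-week replicate 2 arrays neither passed (0.0513 and 0.0536).

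The calls among genes of peptides, glia and vessels stand beside 2.72% higher and 0.754% lower over all genes. At those shares lists of this size would hold few calls or none. Of 17 neuropeptide precursors 1 was higher and 2 were lower. Nts, the precursor of neurotensin, differed by 1.63 (adjusted p = 0.0211), with 8.20, 7.70, 6.38 and 7.67 in hippocampus and 6.57, 6.34, 5.05 and 5.47 in cortex. Its arrays overlapped, and the call was lost without either hippocampal 6-week or either cortical 12-week array (adjusted p from 0.0508 to 0.0724). Of 18 interneuron genes, Npy was lower and Cnr1, the cannabinoid receptor, was higher (0.71, adjusted p = 0.0301). The call of Cnr1 was lost without any 1 of 6 arrays (all but the cortical 6-week arrays, 0.0654 to 0.108) and under the replicate block (0.0777). Slc39a12, a zinc transporter of astrocytes, was the only one of 11 astrocyte genes called (0.64, adjusted p = 0.0111). Cldn5, a tight junction protein of vessels, was the only one of 10 endothelial genes called (−0.32, adjusted p = 0.04), and was lost without any 1 of 7 arrays (all but cortex 6-week replicate 1, 0.0639 to 0.123). None of 14 myelin, 8 oligodendrocyte precursor and 13 microglial genes was called (medians −0.07, −0.03 and −0.15). Lhx9, a homeobox factor of the thalamic list, was higher by 0.68 (adjusted p = 0.00321), while the array high in hypothalamic genes was also the highest cortical array of that list, at 7.52 against 6.35 to 6.58 in the others.

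The tissue difference was next compared between durations and diets. No cluster passed a test for a change of its tissue difference between 6 and 12 weeks (limma, interaction). With 2 arrays a group, this does not show that the differences were the same. An unadjusted p under 0.05 was reached by 1743 clusters, and a variance trend with robust estimation gave 0 calls too. All 30 extreme genes had the same sign at both durations, but their choice by arrays that do not overlap required this. Leaving out hippocampus 6-week replicate 1 gave 8 calls and leaving out cortex 6-week replicate 1 gave 24. The largest fall was that of Ttr, at 4.72 after 6 weeks and 0.21 after 12 weeks (adjusted p = 0.596), with the choroid plexus values given above.

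In the rats fed curcumin, whose arrays are separate from those of the controls, 404 clusters were higher and 305 lower in hippocampus (1.48% and 1.12%). These 709 calls became 444 when replicate numbers were blocked, and their number was between 239 and 470 without any 1 array other than those of cortex after 6 weeks. Of the calls with all arrays, 213 were among the 543 higher on control chow, which is 39.2% of the control calls and 52.7% of the curcumin calls. Likewise 64 of the lower clusters were shared, which is 37% of the control and 21% of the curcumin calls. No cluster was called in opposite directions, and 511 of the 543 higher and 168 of the 173 lower clusters had the same sign on curcumin chow. The 15 highest and 15 lowest genes all kept their sign there. Of these 30, 22 were called, 14 of the 15 highest and 8 of the 15 lowest. The difference was larger on curcumin chow for Prox1 (1.51 on control and 1.63 on curcumin chow), Gria1 (0.78 and 0.92), Gabra5 (1.29 and 1.34) and Nr3c2 (1.18 and 1.23). Prox1 is among the 30 and the others are not. List medians on control and curcumin chow were 0.48 and 0.20 for excitatory transcription factors (8 and 4 called higher) and −0.71 and −0.51 for immediate early genes (7 and 3 called lower). They were 0.29 and 0.28 for granule cell genes (3 and 2 called higher) and 0.35 and 0.41 for the pyramidal fields (4 and 5 called higher). Meis2 differed by −1.47 on control and −0.43 on curcumin chow (adjusted p of the change 0.147). For 25 of the 30 the difference was smaller on curcumin chow, but the genes were chosen for being extreme on control chow, so this is a description only.

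**Figure D5:**
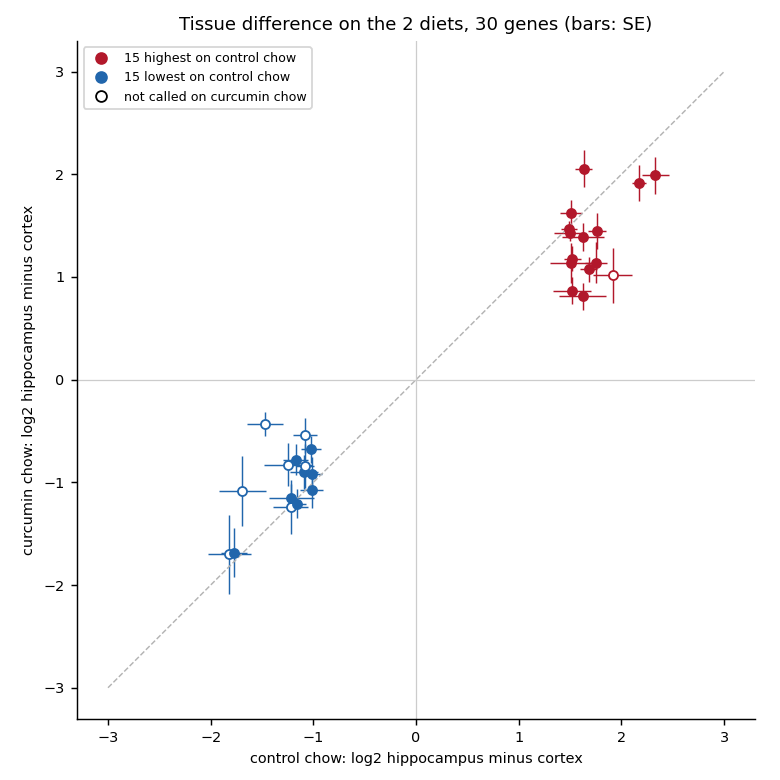
Log2 difference, hippocampus minus cortex, on control chow (x axis) and on curcumin chow (y axis) of the 30 extreme genes, with bars of 1 SE and a dashed line of equality. Open points were not called on curcumin chow, and all 30 points lie in the quadrants of equal sign.

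A test of the change itself, control minus curcumin chow over all 16 arrays, called 5 clusters (0.0183%, with 2308 at an unadjusted p under 0.05). Among them was Adam11, a membrane protein of synapses, which differed between the tissues by 0.63 on control chow (adjusted p = 0.00121) and by 0.0052 on curcumin chow. Its cortical arrays measured 8.09, 7.96, 8.14 and 8.26 on control chow and 8.34, 8.47, 8.86 and 8.82 on curcumin chow, while hippocampal arrays stood between 8.66 and 8.85 on control and between 8.46 and 8.74 on curcumin chow. With the replicate number as a block none of the 5 was called (adjusted p = 0.123 for Adam11). Leaving out single arrays gave 91 calls without cortex control 6-week replicate 1, 4 or 5 calls without curcumin-fed hippocampus 6-week replicate 1, curcumin-fed cortex 6-week replicate 1 or curcumin-fed cortex 12-week replicate 2, and 1 or 2 calls without any other array.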

How the data were processed

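Total RNA of pooled hippocampi and cortices was labelled and hybridised to Affymetrix arrays. An exon array is named in the paper, but the cluster identifiers match the annotation of a gene array, and which was used was not settled here. The authors deposited log2 values, for which the submitters' processing notes name Affymetrix Expression Console and RMA, a background correction, quantile normalization and probe summary, with versions not given in the sources used here. RMA sets all arrays to a like distribution, so a change shared by most genes would not be seen, and log2 values compress low signals. Probe-level data were not used, so signal over background was not examined, and the number of arrays limits the precision.

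Symbols come from the platform annotation (1 symbol for 15103 clusters, several for 317, none for 11922) and were checked by gene ID in a RefSeq table of GRCr8 (15067 found). Differences of log2 values were fitted with limma 3.58.1 in R 4.3.3 (lmFit, eBayes, duration as a block, 5 residual and 2.88 prior degrees of freedom), adjusted by Benjamini-Hochberg over 27342 clusters and called under 0.05. The interaction with duration, the curcumin-fed rats and the difference between diets were fitted likewise. The fits were tested on simulated arrays with 200 changed clusters. Plots were made in Python 3.11.15 with matplotlib 3.10.9.

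The comparison and the 34 gene lists (504 of 594 genes measured) were chosen with earlier results of these data known. Named by rule were the 15 highest and 15 lowest genes among those called without overlap, up to 4 called members of each list with the largest moderated t (the 2 largest where none was called), markers of the tissue labels, and the 5 highest and 5 lowest changes with duration and with diet. Genes outside this rule are said to be named after their values were seen. Drd1, Th, Dcx, Nr3c1, Junb, Cyp11b2 and Cyp11b3 are also outside it, though not marked so where they are given. Some list members were not measured, and some that were, among them markers of cortical layers, are not reported singly. Alternatives were a filter on the dimmest 40% of clusters, quantile and median scaling, other blocks, all 16 arrays, other thresholds, and leaving out arrays.

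Replicate numbers come from the labels, and samples of 1 number may come from the same rats. Deviations of same-numbered hippocampal and cortical control arrays correlated at 0.124 (6 weeks) and 0.162 (12 weeks). In the curcumin-fed rats they correlated at −0.154 (6 weeks) and 0.148 (12 weeks). The random block, fitted with statmod 1.5.0, put the correlation of same-numbered control arrays at 0.00641. Whether the numbers pair the samples is thus not settled. The replicate block treats the control samples as paired, on 2 independent values only.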

Additional observations from a re-analysis of the deposited data

Results flagged for a closer look

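Sets of 4 control arrays were examined for 96 of the genes named in the text and 19 marker lists, in hippocampus and in cortex. In 19 of these 230 sets (8.26%) the gap of 1 array to the nearest other was too large a share of the range (Dixon's test). The nominal rate of 1 in 20 is no yardstick here, since the genes were already chosen and each set mixes both durations. Hippocampus 6-week replicate 1 stood apart in Cabp7 (9.10), Dgkg (9.17), Gabra2 (9.89) and Fkbp5 (8.19), where it was lowest, and in Per1 (7.31) and Nr4a3 (7.94), where it was highest. Hippocampus 12-week replicate 2 was highest in Neurod6 (10.01), Bok (8.17) and Cyp11b1 (5.97), and hippocampus 12-week replicate 1 was lowest in Rims3 (6.15). Among the hippocampal arrays, red blood cell genes were highest in 6-week replicate 2 (7.25). Cortex 6-week replicate 2 was highest in Trpc4 (7.56), Pmch (8.39), Th (8.33), Dcx (9.04) and the lists of the olfactory bulb (7.33) and the hypothalamus (6.84), and lowest in Pdp1 (8.43). Cortex 6-week replicate 1 was lowest in Npy (8.86).

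The tissue difference differed between control and curcumin chow for 5 clusters, which were named after their values were seen. The control minus curcumin difference was 0.62 for Adam11 (SE 0.07, adjusted p = 0.0252), 0.57 for Wbp2, a WW-domain binding protein (adjusted p = 0.0252), and 0.52 for Vamp2, the vesicle SNARE synaptobrevin (adjusted p = 0.0252). It was 1.26 and 0.90 for clusters without a gene symbol (adjusted p = 0.000499 and 0.0262). The first of these measured 7.67 and 7.46 in cortex after 12 weeks of curcumin and between 4.79 and 5.08 on the other 14 arrays.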

How the results depend on the processing

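The 716 tissue calls on control chow became 351 (272 higher, 79 lower) without the duration block, 1151 (842 and 309) in a fit of all 16 arrays, 435 (324 and 111) when a replicate block was added, 159 (109 and 50) on the 12-week arrays, 232 (194 and 38) at an adjusted p under 0.01 and 279 (209 and 70) with at least 1.5-fold, while the 6-week arrays alone gave 0 (0 higher, 0 lower). Added after seeing the data, the fit without both 6-week replicate 2 arrays gave 302 (221 and 81), and that without the cortical arrays high in striatal genes 411 (269 higher). Leaving out 1 array gave 307 to 646 calls, 241 to 444 higher and 66 to 202 lower. The other settings, a filter on dim clusters, quantile and median scaling, a variance trend, array weights, a random block and clusters with 1 symbol only, stayed within 1.5 times the count.

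The change with duration had 0 calls, and 0 to 24 without 1 array. On curcumin chow 709 calls became 444 with the replicate block, and 239 to 807 without 1 array. Deviations of the 6-week samples of the curcumin-fed rats correlated at −0.154, so their numbers may be crossed or may not pair the samples. The crossed block gave 529 calls. The 5 calls of the difference between diets became 3 with the filter on dim clusters, 18 after quantile normalization, 0 under the replicate block and 1 to 91 without 1 array. The 429 clusters at least 1.5-fold apart became 109 at 2-fold, and 397 to 494 without 1 array.

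No named gene changed its sign between the main fit and another fit if either fit called it. Sign changes of genes called in neither fit were not counted. Of the 80 named genes that were called, 14 lost the call under the replicate block, 3 after quantile normalization, 28 without both 6-week replicate 2 arrays and 25 without the cortical arrays high in striatal genes. The causes were not tested. The design has 4 arrays a tissue, which limits what can pass.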
